A study of Homo sapiens with 12 samples.

Results

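HMLE cells that carried both HORMAD1 and CT83 (the double line) were compared with HMLE cells that carried HORMAD1 without CT83 (the HORMAD1 line), so that the lines differed by the CT83 construct on a shared HORMAD1 background. HMLE cells are breast epithelial cells of human origin that telomerase and the antigens of SV40 keep dividing. By their titles, 3 libraries belonged to the double line and 3 to the HORMAD1 line, 6 of the 12 libraries of the study. The other 6 came from a control line and from a line with CT83 alone, 3 of each, and all 4 lines had been selected with puromycin. Polyadenylated RNA was sequenced, and the deposited expected counts per gene, estimates that need not be whole, were rounded. Each construct was represented by 1 line, so an effect of CT83 and a difference between lines cannot be told apart. The labels do not say whether the 3 libraries of a line were separate cultures, and p-values then cover only how far libraries of a line lie apart, a spread that may be technical.

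CT83, also known as KK-LC-1, lies on the X chromosome and is a cancer/testis gene: its transcript is found in testis and in some tumours and is silent in most other adult tissues. HORMAD1 is a cancer/testis gene as well, and its protein coats the axis of meiotic chromosomes, where it promotes recombination and the pairing of homologues. Mammary epithelial cells keep an inducible NF-kB pathway, in which kinase signals free NF-kB dimers to enter the nucleus and switch on cytokines, chemokines and the pathway's own inhibitors. The comparison asks what CT83 adds to cells that already express HORMAD1.

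Library totals ran from 9898845 to 14159740 counts among the 6 libraries. Replicates of the same line differed by more than counting noise: across the 4 lines their chi-square, divided by its degrees of freedom, was 2.54 to 26.6. Replicate 1 of the HORMAD1 line stood apart from its line: this ratio was 21.9 and 26.6 against replicates 2 and 3, which differed from each other by 2.54. In that library the level relative to the 12-library mean was higher for longer transcripts, by 0.043 log2 units per doubling of length, against -0.018 to -0.009 in the other HORMAD1 libraries and -0.04 to 0.004 in the double line. The counts of calls, and most results that this library moves, are given below with and without it. Of 12 mammary epithelial markers all were tested, and their summed level was 13790 to 16850 CPM (counts scaled to library size, with TMM normalisation) in the HORMAD1 line and 14820 to 16210 in the double line. Markers of other cell types were low: fibroblast (7 of 11 tested) 102.5 to 146.8 and 109.1 to 166.0 CPM, endothelial (1 of 8) 10.7 to 17.3 and 11.4 to 16.3 CPM, and adipocyte (1 of 6) 4.83 to 8.02 and 4.82 to 5.86 CPM. Immune markers (3 of 10 tested) summed to 146.9 to 166.8 and 161.2 to 172.9 CPM, most of it CSF1R. CD3E, MS4A1, NKG7, ADIPOQ and LEP had no counts in any of the 6 libraries.

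CT83 was present where the labels place it. It had 0 counts in each of the 3 HORMAD1 libraries and 977, 1153 and 1170 counts in the double line, or 86.7, 101.1 and 117.8 CPM. A count of 0 allows up to 3 counts per library, 0.202 to 0.289 CPM here, for counting error only. Measured against the mean of those floors, the mean of the double line was at least 405-fold higher. Each of its 3 libraries lay above every floor. The exact two-sided permutation test of 3 against 3 gave its smallest possible p of 0.1, and the edgeR quasi-likelihood test gave an adjusted p of 0.0217 (Benjamini-Hochberg over all genes tested, as for all adjusted p below). That call was lost when replicate 2 of the CT83 line, or any single HORMAD1 or double library, was left out, with an adjusted p of up to 0.172, although the groups remained apart. The CT83 line itself held 523 ± 175 CPM (SD, n = 3) of CT83 against 102 ± 15.6 CPM in the double line, so the comparison is made at the lower of the CT83 levels in the study.

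HORMAD1, the gene that both lines carry, was measured at 202.8, 332.1 and 335.1 CPM in the HORMAD1 line and at 283.0, 312.5 and 346.5 CPM in the double line. The groups overlapped, and replicate 1 of the HORMAD1 line was the lowest of the 6. The log2 fold change, double minus HORMAD1, was 0.12 (edgeR adjusted p = 0.903), and the exact two-sided permutation p was 0.8. Neither the control nor the CT83 line had a HORMAD1 count.

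**Figure D1:**
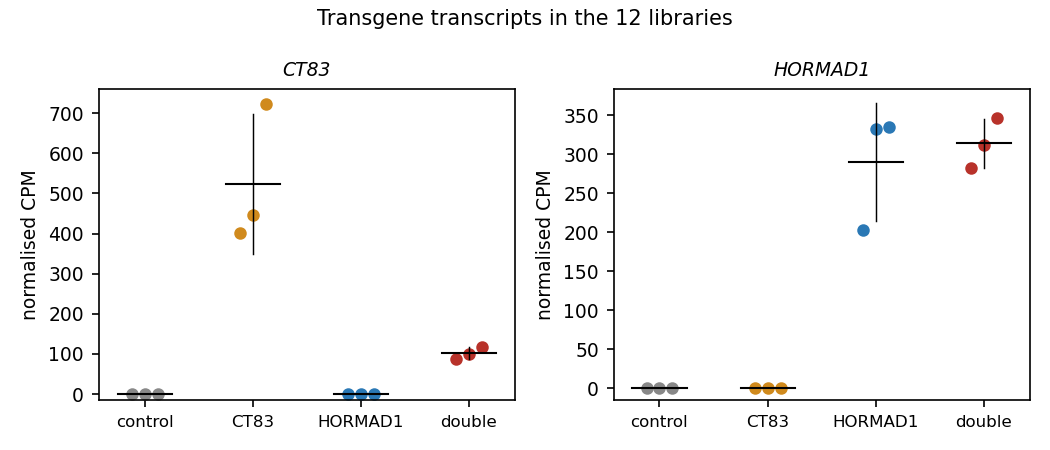
Normalised CPM of CT83 (left) and HORMAD1 (right) in each of the 12 libraries, by line; points are libraries, horizontal bars means and vertical bars 1 SD (n = 3). CT83 is at 0 in the control and HORMAD1 lines and at 86.7 to 117.8 CPM in the double line, while HORMAD1 overlaps between the HORMAD1 and double lines.

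Few genes separated the lines. Of 15616 genes tested with all 12 libraries in the fit, CT83 was the 1 gene called higher (0.0064%) and 6 genes were called lower (0.0384%) at an adjusted p under 0.05. AIF1L, C15orf48, CPVL and B4GALT5 fell, together with 2 genes that have an identifier but no symbol in the files. Before adjustment, 539 genes had a p under 0.05 on the higher side (3.45%) and 646 on the lower side (4.14%), and the median standard error of a log2 fold change was 0.15. All 3 double libraries lay above all 3 HORMAD1 libraries for 983 genes (6.29%) and below them for 923 genes (5.91%). DESeq2 called 57 genes, 28 higher and 29 lower, which included all 7 edgeR calls, and limma-voom called 4, all among the 7.

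AIF1L, an actin-bundling protein related to the macrophage protein AIF1, was at 10.9, 12.9 and 12.1 CPM in the HORMAD1 line and at 4.79, 3.16 and 4.53 CPM in the double line. Every double library was below every HORMAD1 library and also below the control range of 7.84 to 12.1 CPM and the CT83 range of 6.83 to 8.61 CPM. AIF1L (chromosome 9, 131096476 to 131123152, GRCh38) fell 2.88-fold (log2 fold change -1.52, SE 0.20, edgeR adjusted p = 0.0172).

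C15orf48, a small mitochondrial protein related to a subunit of respiratory complex IV and known as inducible by inflammation, was at 8.63, 8.68 and 10.97 CPM in the HORMAD1 line. The double line held 3.37, 2.72 and 2.11 CPM, so the groups did not overlap. Its log2 fold change was -1.77 (SE 0.25, edgeR adjusted p = 0.0172), and control libraries lay between the lines at 4.17 to 7.87 CPM. C15orf48 (chromosome 15, 45430529 to 45448761) overlaps SLC30A4-AS1 and an antisense gene, ENSG00000259342, which fell by 1.5 on the log2 scale (adjusted p = 0.0217). Because the use of strand in counting is not given in the sources used here, reads from this pair cannot be told apart, and the 2 calls may be 1 difference.

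CPVL, a serine carboxypeptidase, was the least abundant of the called genes. It measured 3.51, 3.76 and 4.04 CPM in the HORMAD1 line and 0.887, 1.40 and 0.604 CPM in the double line (log2 fold change -1.93, SE 0.30, edgeR adjusted p = 0.023). The CT83 line held 1.64 to 2.31 CPM of CPVL and the control line 3.54 to 4.81 CPM. CPVL was named after its values were seen, because its level was under the minimum set for named genes.

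B4GALT5, a galactosyltransferase that makes lactosylceramide, had the smallest called change and the narrowest groups. Its levels were 151.2, 164.9 and 149.4 CPM in the HORMAD1 line and 115.3, 112.6 and 117.3 CPM in the double line, a log2 fold change of -0.43 (SE 0.07, edgeR adjusted p = 0.0449). The remaining call, ENSG00000288528, has neither a symbol nor coordinates here; it was at 112.1, 113.4 and 102.7 CPM against 66.8, 58.7 and 67.7 CPM (log2 fold change -0.77, adjusted p = 0.0172). With any single double library, or HORMAD1 replicate 2 or 3, left out, 0 genes were called, and with only the 6 libraries compared in the fit CT83 alone was called.

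**Figure D2:**
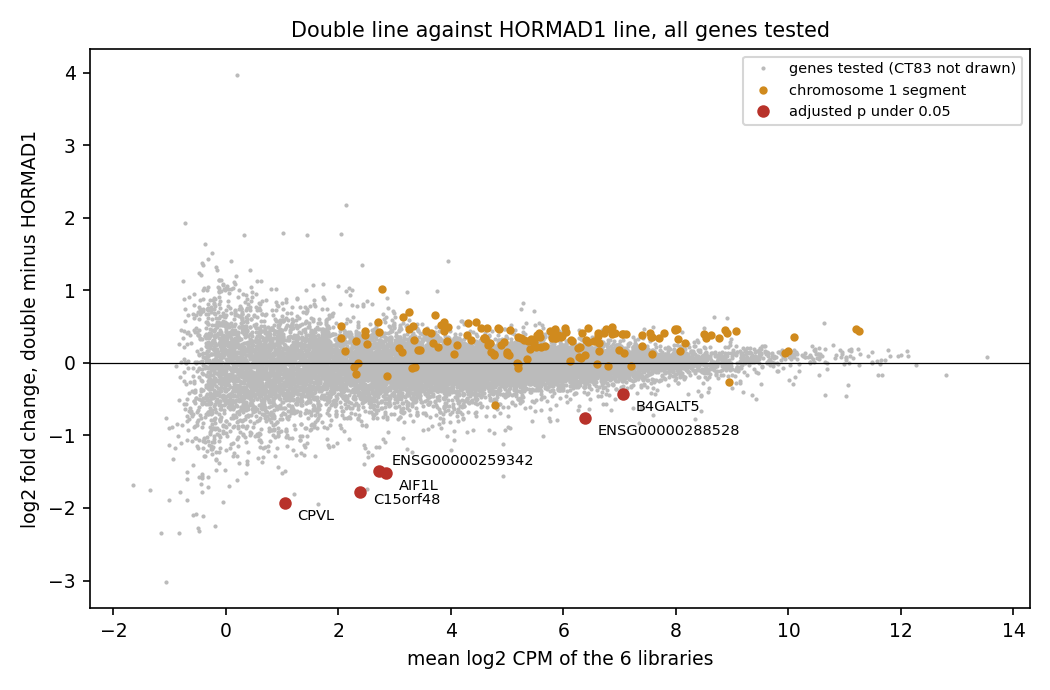
Log2 fold change, double minus HORMAD1, against mean log2 CPM of the 6 libraries for all genes tested except CT83, 1 point per gene. The 6 genes called lower are red and labelled, and genes of a segment of chromosome 1, described further on, are orange and lie mostly above 0.

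Leaving out HORMAD1 replicate 1 gave 39 calls of 15841 genes tested, 11 higher (0.0694%) and 28 lower (0.177%), and 6 of the 7 earlier calls were among them. The lost call was CT83, and the genes added were named after their values were seen. That fit keeps 2 HORMAD1 libraries, the pair that lay closest in its line (chi-square ratio 2.54). Its p-values, here and below, therefore rest on a narrower spread within the HORMAD1 line and are no independent check. The lower side included chemokines and tight junction genes. CXCL8, the neutrophil chemoattractant interleukin 8, was at 28.6, 98.1 and 103.6 CPM in the HORMAD1 line and at 47.2, 44.3 and 40.2 CPM in the double line. Only replicate 1 of the HORMAD1 line lay below the double line, and the other 2 lay above it. The log2 fold change of CXCL8 was -0.80 (edgeR adjusted p = 0.681) with all libraries and -1.21 (adjusted p = 6.86e-06) without that replicate. CXCL2, of the same chemokine cluster, had a log2 fold change of -0.72 (adjusted p = 0.386) with that replicate and -0.99 (adjusted p = 0.0241) without it. Genes called on the lower side without this library also included UGCG, which makes glucosylceramide, the substrate of B4GALT5 (-0.49, adjusted p = 0.0411), and the aldehyde dehydrogenase ALDH1A3 (-0.52, adjusted p = 0.035).

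Genes of the NF-kB pathway and its inflammatory targets lay mostly below 0 in double minus HORMAD1, without any being called by edgeR with all libraries. Of 42 listed genes 39 were tested, 33 had a log2 fold change below 0 and 6 above, and the median was -0.26, against -0.01 over all genes tested. With all libraries, edgeR and limma-voom called 0 members. An unadjusted p under 0.05 was reached by 10, all on the lower side, against 4.14% of all genes tested. DESeq2 called 4 lower, BIRC3, TNFAIP3, IL32 and PTGS2, among its 29 lower calls over all genes. In 9 of the 39 members the double libraries were all below the HORMAD1 libraries, and in 0 were they all above, against 5.91% and 6.29% of all genes tested. Mean relative log2 CPM of the list was 0.03, 0.21 and 0.29 in the HORMAD1 line and -0.03, -0.13 and -0.04 in the double line, with control at -0.08 to 0.06 and CT83 at -0.12 to -0.05. The median was -0.23 without HORMAD1 replicate 1 and between -0.29 and -0.21 in every other setting tried. Measured against the control line, whose libraries both comparisons then share, the list's median was 0.19 in the HORMAD1 line and -0.08 in the double line.

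BIRC3, a ubiquitin ligase of the TNF receptor complex and a target of NF-kB, was at 148.1, 152.2 and 134.4 CPM in the HORMAD1 line and at 100.2, 79.4 and 98.7 CPM in the double line. No library crossed between groups, and the double libraries lay at the lower edge of the control range of 99.4 to 123.8 CPM or below it. The log2 fold change was -0.64 (SE 0.12, edgeR adjusted p = 0.0811), which did not pass the threshold. TNFAIP3, the A20 deubiquitinase that restrains NF-kB, was at 52.2, 50.1 and 54.1 CPM against 35.7, 36.0 and 31.1 CPM (log2 fold change -0.61, SE 0.12, adjusted p = 0.124).

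IL32, a pro-inflammatory cytokine, was at 22.1, 30.3 and 31.7 CPM in the HORMAD1 line and at 17.4, 18.2 and 14.6 CPM in the double line. Its log2 fold change of -0.74 (adjusted p = 0.127) became -0.89 (adjusted p = 0.00484) without HORMAD1 replicate 1. PTGS2, the inducible cyclooxygenase, was at 14.6, 18.6 and 25.2 CPM against 11.1, 10.5 and 9.56 CPM (log2 fold change -0.90, adjusted p = 0.171), and had -1.08 (adjusted p = 0.0337) without that replicate. In that fit 4 members of the list were called lower: CXCL8, PTGS2, CXCL2 and IL32. The pathway's subunits and inhibitors spread around 0: NFKB2 had a log2 fold change of -0.36, RELB -0.24, NFKB1 -0.12, RELA -0.04, NFKBIB 0.00 and NFKBIA, the inhibitor IkB-alpha, 0.17, none of them called. CXCL6 at 1.02 and IL6 at 0.19 lay highest among the secreted members. These subunits and secreted members were named after their values were seen. TNFAIP3 and IL32 each overlap a tested noncoding gene, so some of their reads may belong to it.

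Many proximal promoters of these genes, though not all, show a sequence of the kind that NF-kB dimers recognise. Of the 39 tested members, 33 are in the RefSeq promoter table (GRCh38.p14), and the 250 bases before a start site held a match to the NF-kB consensus, on either strand, in 19 of them (57.6%). The same search found a match in 15.4% of the 10559 tested genes in the table and in 11.8% of all 27305 genes. The share is a property of the listed promoters that does not rest on these libraries. Because the list was made of NF-kB pathway genes and targets, a high share may follow from that choice and says nothing about the expression values. Matches stand in members low in the double line and in members near 0, such as NFKBIA. CXCL6 and IL6, highest among the secreted members, hold matches too. A match describes letters and not a bound site. The AP-1 motif TGANTCA, searched on both strands, was found in 4 of the 33 (12.1%) against 6.59% of tested genes. Windows of 30 bases around the matches, 5′ to 3′ on the gene's strand with the match in capitals, are shown for members that lay low in the double line and, for comparison, for NFKBIA.
BIRC3, distal match, chr11:102317275-102317304, plus strand: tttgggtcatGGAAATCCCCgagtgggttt
BIRC3, proximal match, chr11:102317339-102317368, plus strand: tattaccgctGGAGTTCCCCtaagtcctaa
TNFAIP3, both matches, chr6:137867188-137867217, plus strand: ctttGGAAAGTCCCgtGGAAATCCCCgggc
IL32, chr16:3065294-3065323, plus strand: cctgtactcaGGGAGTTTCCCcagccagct
CXCL1, chr4:73869304-73869333, plus strand: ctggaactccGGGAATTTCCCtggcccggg
CXCL2, chr4:74099254-74099283, minus strand: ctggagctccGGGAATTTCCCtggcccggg
NFKBIA, chr14:35404811-35404840, minus strand: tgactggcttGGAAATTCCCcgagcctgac

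The CXCL1 and CXCL2 windows, from genes of the same chemokine cluster, carry the same run of capitals. CXCL6, whose window is not printed, carries that run as well. BIRC3 held matches that begin 199 and 135 bases before its start site, and in TNFAIP3 both matches fall within 1 window. The consensus searched was GGGRNNYYCC, where R is A or G, Y is C or T and N is any base. The 250 bases of CXCL8 and PTGS2 held no match to it. A stretch that departs by 1 letter, such as tggaatttcc in CXCL8, was not counted, so the absence of a match is not the absence of a site. C15orf48 and AIF1L are not named in the promoter table.

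**Figure D3:**
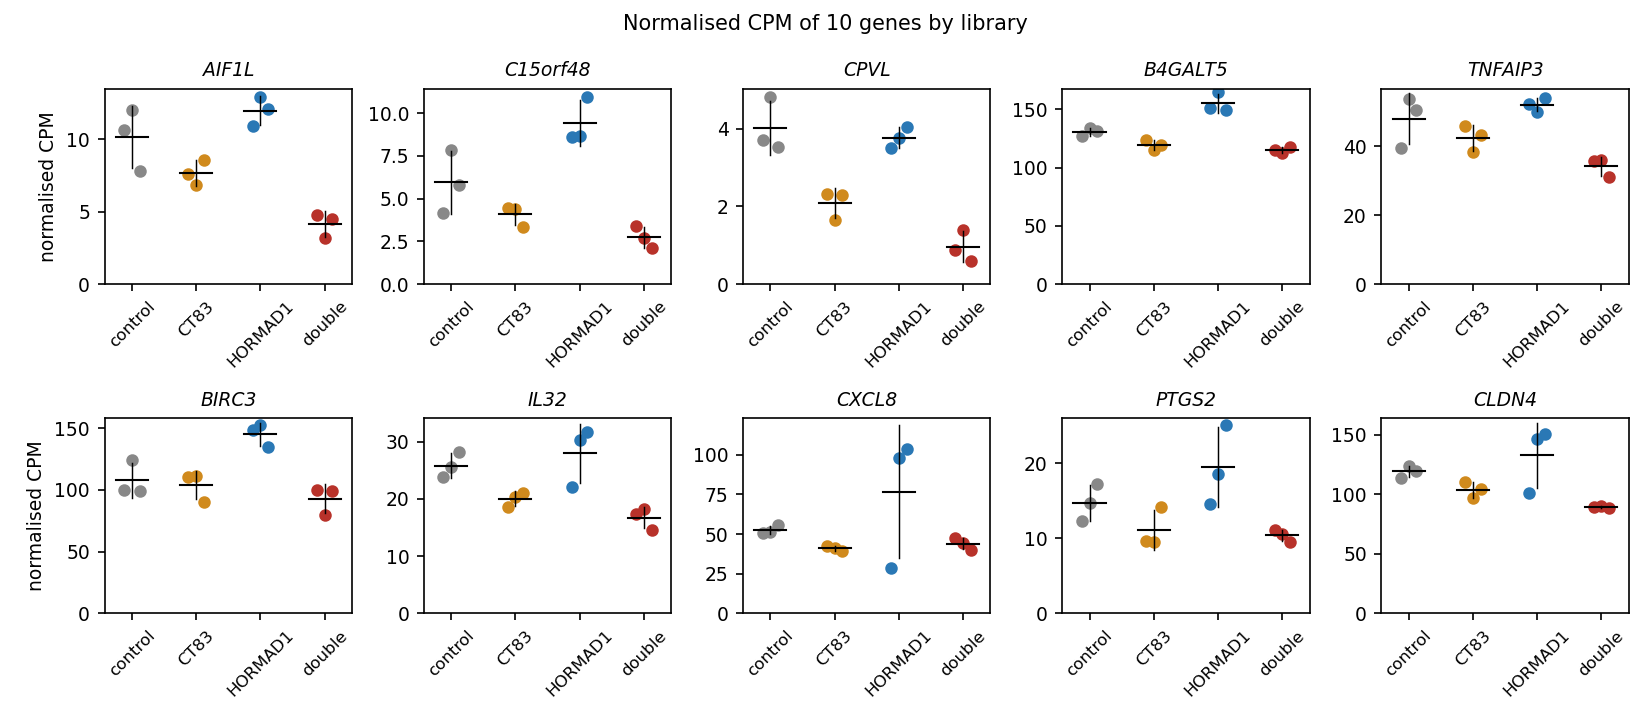
Normalised CPM of 10 genes in each library, by line, with every axis starting at 0; points are libraries, horizontal bars means and vertical bars 1 SD (n = 3). The 4 called genes with a symbol (AIF1L, C15orf48, CPVL, B4GALT5) do not overlap between the HORMAD1 and double lines, and in CXCL8 a single HORMAD1 library, at 28.6 CPM, lies apart from the other 2.

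Epithelial junction genes, which seal and anchor neighbouring cells, lay mostly below 0, without a call by edgeR with all libraries. Of 35 members tested 28 were below 0 and 7 above, the median was -0.14 (-0.16 without HORMAD1 replicate 1), and 9 had all double libraries below all HORMAD1 libraries, against 5.91% of all genes. EdgeR called 0 with all libraries, 11 had an unadjusted p under 0.05, all on the lower side, limma-voom called 0 and DESeq2 called CLDN4. CLDN4, a claudin of tight junctions, was at 100.7, 146.5 and 150.4 CPM in the HORMAD1 line and at 89.4, 90.1 and 88.2 CPM in the double line. The 3 double libraries lay within 2 CPM of each other and below every HORMAD1 library (log2 fold change -0.57, SE 0.12, edgeR adjusted p = 0.157). Without HORMAD1 replicate 1 its log2 fold change was -0.74 (adjusted p = 0.000123), and occludin (OCLN, -0.68, adjusted p = 0.0337) and E-cadherin (CDH1, -0.48, adjusted p = 0.0473) were called too. OVOL1, a transcription factor that maintains the epithelial state, had a log2 fold change of -0.67 (adjusted p = 0.214), and the desmosomal and adherens genes DSG3 (-0.03), CTNNB1 (0.03) and PERP (0.13) lay near 0 or above. OCLN, CDH1 and OVOL1 each overlap another tested gene.

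Markers of the luminal mammary lineage were on the same side. Of 13 tested, 11 were below 0 and 2 above, with a median of -0.29, and 0 were called by edgeR, DESeq2 or limma-voom. An unadjusted p under 0.05 was reached by 4, all lower, against 4.14% of all genes tested. Without HORMAD1 replicate 1 the median was -0.28, and edgeR called 2 lower, KRT8 and CD24. FOXA1, a pioneer factor of luminal cells, had -0.37 (adjusted p = 0.522), and the luminal keratin KRT8 had -0.30 (adjusted p = 0.523), or -0.43 (adjusted p = 0.0467) without that replicate. Basal markers did not share this: of 20 tested 10 lay above and 10 below 0, with a median of -0.01. The basal keratin KRT14 was at 263.9, 442.1 and 491.0 CPM against 727.9, 660.4 and 443.4 CPM (log2 fold change 0.61, adjusted p = 0.573), so its groups overlapped. KRT8 and KRT18 overlap in the annotation.

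Mesenchymal genes had a median of 0.17 over 22 tested, 13 above 0 and 9 below, and 0.50 without HORMAD1 replicate 1. The lines overlapped in mean relative log2 CPM, at 0.35, -0.57 and -0.43 in the HORMAD1 line and -0.22, 0.09 and 0.43 in the double line. Control libraries ran from 0.14 to 0.42. Against control, whose libraries both values share, the median was -0.26 in the HORMAD1 line and -0.05 in the double line. None was called by edgeR, DESeq2 or limma-voom. An unadjusted p under 0.05 was reached by 3, 1 of them higher, against 7.59% of all genes tested on either side. VIM, the intermediate filament of mesenchymal cells, was at 244.8, 229.3 and 240.1 CPM against 274.7, 363.4 and 321.7 CPM, and the groups did not overlap (log2 fold change 0.43, SE 0.14, adjusted p = 0.47). LOXL2, a collagen crosslinking enzyme, had -0.38 (adjusted p = 0.548). COL1A1, COL3A1 and PDGFRB are fibroblast markers as well as mesenchymal ones, and the fibroblast marker sums given above overlap between the lines; their part in this median was not tested.

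Targets of YAP and TAZ, co-activators that respond to cell density and tension, were below 0 in 20 of 22 members tested, with a median of -0.25 (-0.16 without HORMAD1 replicate 1) and no overlap in 6, all lower, against 5.91% of all genes. EdgeR and limma-voom called 0, 5 had an unadjusted p under 0.05, all lower, and DESeq2 called CCN1 and NUAK2. CCN1, a secreted matricellular protein, was at 309.4, 217.1 and 225.2 CPM in the HORMAD1 line and at 140.2, 129.7 and 188.2 CPM in the double line (log2 fold change -0.72, SE 0.18, edgeR adjusted p = 0.277). NUAK2, a kinase that feeds back on the pathway, was at 11.5, 7.91 and 9.83 CPM against 2.84, 4.65 and 5.74 CPM (-1.15, adjusted p = 0.157). Both genes were lower in 3 of 3 double libraries, but the list as a whole overlapped between the lines. Its mean relative log2 CPM was 0.35, 0.04 and 0.06 in the HORMAD1 line and -0.42, -0.18 and 0.13 in the double line. The CT83 line ran from -0.29 to 0.35 and the control line from -0.03 to 0.21. Among EGF receptor ligands and MAPK feedback genes 10 of 22 lay above 0, with a median of -0.02. ERRFI1 of that list, an inhibitor of the EGF receptor, was at 239.9, 214.5 and 198.4 CPM against 154.7, 161.6 and 172.7 CPM (-0.42, adjusted p = 0.138).

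Several lists followed replicate 1 of the HORMAD1 line. The immediate early genes, with a median of -0.29 over 18 tested, stood at 0.05 without it, and the Notch list moved from -0.18 to 0.14. A list of long genes for cell adhesion, motors and chromatin had 32 of 33 members below 0 and a median of -0.31, which became 0.12 without that library. Across all genes with a known length, Spearman's correlation of the log2 fold change with log2 transcript length was -0.10 with all libraries and -0.03 without it. Squamous differentiation genes had a median of 0.13, which became -0.10 without HORMAD1 replicate 1 and also without double replicate 1.

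Ribosomal protein genes lay slightly higher in the double line, 49 of 51 above 0, with a median of 0.12 (0.05 without HORMAD1 replicate 1). In 7 the double libraries were all above the HORMAD1 libraries, against 6.29% of all genes. RPL5, a protein of the large subunit, was at 1867, 2098 and 2066 CPM against 3051, 2686 and 2555 CPM, the widest difference in the list (log2 fold change 0.46, SE 0.12, adjusted p = 0.248). Genes of the NRF2 antioxidant response had 20 of 26 above 0 and a median of 0.08 in both settings. NQO1, a quinone reductase, was at 269.2, 313.2 and 315.4 CPM against 369.5, 353.7 and 390.0 CPM (0.31, adjusted p = 0.348). EdgeR, DESeq2 and limma-voom called 0 genes in either list. An unadjusted p under 0.05 was reached by 3 of 51 ribosomal and 5 of 26 NRF2 genes, all higher. Over all genes tested that share was 3.45%.

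The functions that name both transgenes showed little. Of 41 meiotic axis and recombination genes 11 passed the filter on low counts, with a median of -0.03. Of 60 other cancer/testis genes 11 passed, among them KNL1 and ATAD2, which dividing cells use, and the median was -0.04. The 42 double-strand break repair genes tested had a median of 0.01 with 22 above and 20 below 0. RBBP8, the end resection factor CtIP, was the member with the smallest p (log2 fold change 0.26, SE 0.09, edgeR adjusted p = 0.499). Of 13 neighbours of CT83 on the X chromosome 6 were tested, 3 above and 3 below 0. In these 4 lists edgeR, DESeq2 and limma-voom called 0 genes. An unadjusted p under 0.05, on either side, was reached by 2, 0, 1 and 1, against 7.59% of all genes tested.

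**Figure D4:**
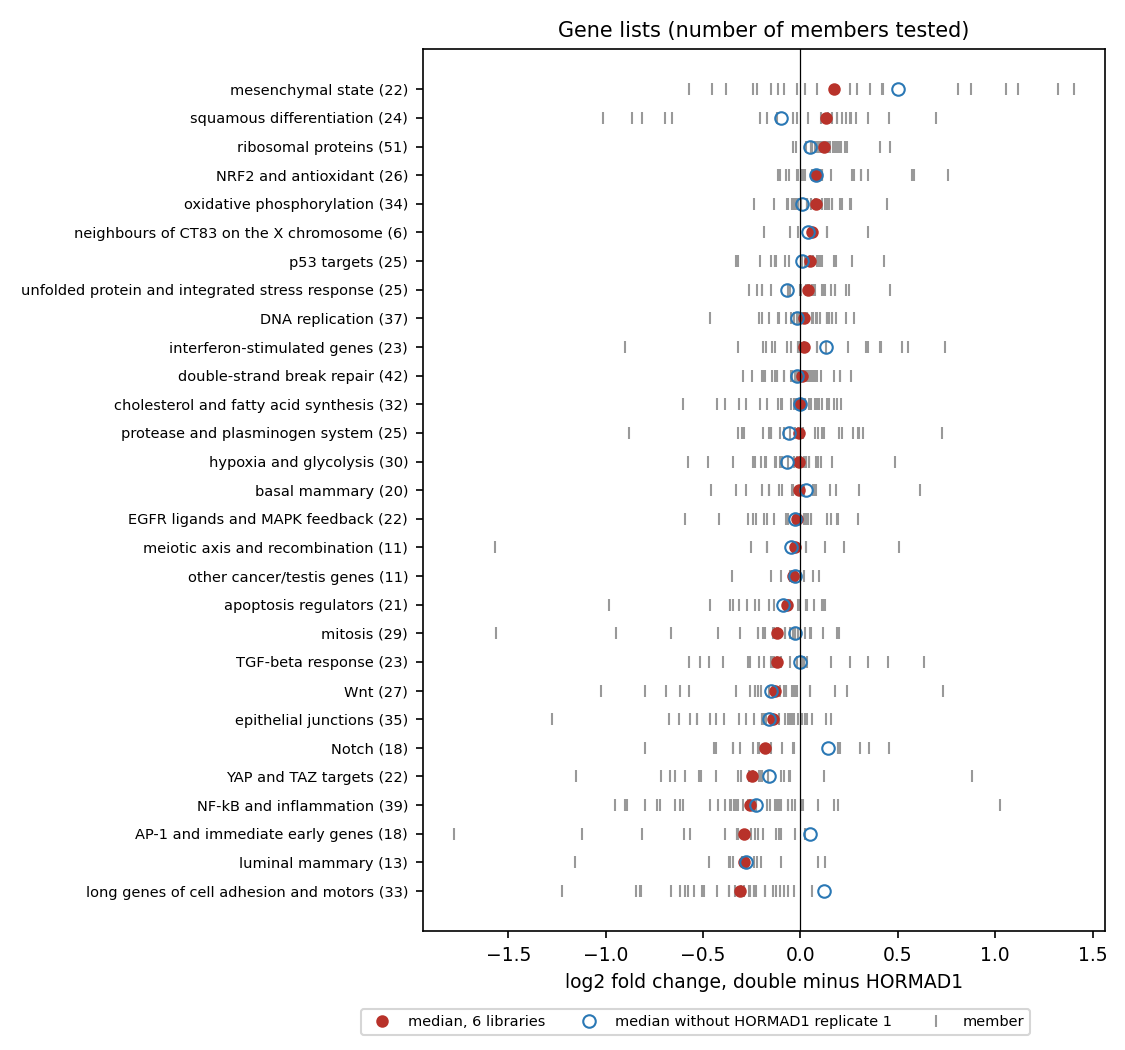
Log2 fold change, double minus HORMAD1, of the members of 29 gene lists (grey ticks, number tested in brackets), ordered by the list's median in the 6 libraries (red) beside the median without HORMAD1 replicate 1 (open blue). The medians of NF-kB, luminal and epithelial junction genes stay in place without that replicate, while those of long genes, immediate early genes and Notch cross 0.

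Genes of 1 stretch of the genome lay higher in the double line more often than other genes, though none of them was called with all libraries; the stretch was seen in the data and is described without a test. NTNG1, WDR77, SNX7 and DNTTIP2, 4 of the uncalled genes that the naming rule took on the higher side, all lie on chromosome 1. When 11655 genes were placed in 264 bins of 10 Mb, the quartiles of the bin medians were -0.03 and 0.03, and 246 bins lay within 0.1 of 0. The 3 highest bins were adjacent on chromosome 1, from 90 to 120 Mb, with medians of 0.34, 0.35 and 0.31, and the next highest bin had 0.17. The 147 genes from 90 Mb to just short of the centromere had a median log2 fold change of 0.34 (quartiles 0.19 and 0.42), and 134 of them (91.2%) lay above 0. In 77 of the 147 (52.4%) all double libraries were above all HORMAD1 libraries, against 6.23% of the other placed genes, and in 0 were they all below. EdgeR called none of them with all libraries, limma-voom called 0 and DESeq2 called 13. An unadjusted p under 0.05 was reached by 89, all higher, against 3.45% of all genes tested. The median was 0.38 without HORMAD1 replicate 1 and ran from 0.28 to 0.38 over all settings tried.

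Median relative log2 CPM of the segment was -0.04, -0.15 and -0.20 in the HORMAD1 line and 0.27, 0.13 and 0.16 in the double line. The double libraries were thus the 3 highest of the 12 but for 1 tie at 0.13 with a CT83 library, while control ran from -0.23 to 0.00 and CT83 from -0.06 to 0.13. Against control the segment's median was 0.11 in the CT83 line, -0.04 in the HORMAD1 line and 0.27 in the double line, and all 3 values share the control libraries. Without HORMAD1 replicate 1, 8 of the 11 genes called higher lay in this segment, and 13 of the 28 higher calls of DESeq2 did. The DNA of the lines was not analysed here.

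NTNG1, a netrin-like guidance protein of chromosome 1, came nearest to a call. It was at 4.86, 4.53 and 4.65 CPM in the HORMAD1 line and at 9.23, 10.5 and 8.86 CPM in the double line (log2 fold change 1.02, SE 0.17, edgeR adjusted p = 0.0512), and 1.05 (adjusted p = 0.0411) without HORMAD1 replicate 1. Its double libraries exceeded all other 9 libraries, of which the highest was a CT83 library at 8.23 CPM. ARHGAP29, a GTPase-activating protein for RhoA, was at 434.5, 419.9 and 360.4 CPM against 554.4, 508.4 and 600.4 CPM (0.45, adjusted p = 0.157), and had 0.50 (adjusted p = 0.0473) without that replicate. PHGDH, the first enzyme of serine synthesis, was at 274.1, 186.5 and 189.2 CPM against 318.1, 275.1 and 301.3 CPM. Here HORMAD1 replicate 1 lay at the edge of the double range, and the log2 fold change was 0.46 (adjusted p = 0.397) with it and 0.66 (adjusted p = 0.0241) without it. ATP5PB, a subunit of ATP synthase, had 0.44 (adjusted p = 0.248), and GCLM, the modifier subunit of glutathione synthesis, had 0.35 (adjusted p = 0.353). RPL5, ATP5PB and GCLM were each the only member of the ribosomal, oxidative phosphorylation and NRF2 lists in the segment, and without them the medians of these lists were 0.12, 0.07 and 0.08. ATP5PB and WDR77 overlap each other, and ARHGAP29 and RPL5 each overlap another tested gene.

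**Figure D5:**
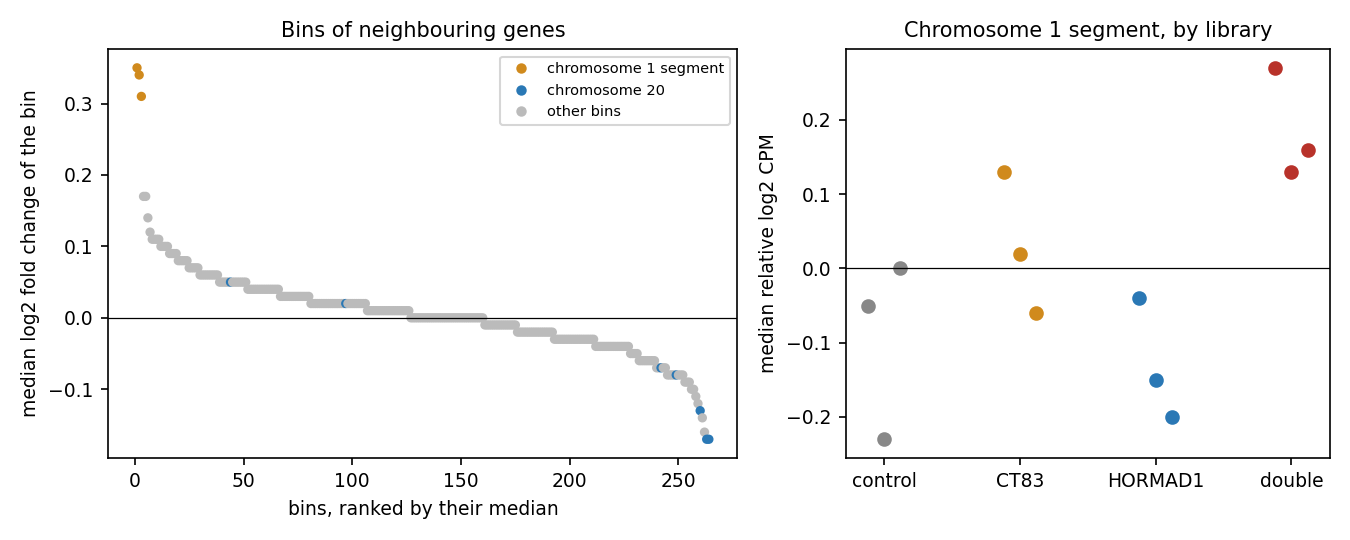
Left, median log2 fold change, double minus HORMAD1, of 264 bins of neighbouring genes, ranked; the 3 bins of the chromosome 1 segment (orange) are the highest and 2 of the 4 lowest bins are on chromosome 20 (blue). Right, median log2 CPM of the 147 segment genes relative to the 12-library mean, 1 point per library, with the double line at 0.13 to 0.27 and the HORMAD1 line at -0.20 to -0.04.

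The lowest bin medians, from -0.17 to -0.13, were smaller in size and lay on chromosomes 20 and 8, among them 20 to 30 Mb (-0.14) and 140 to 150 Mb (-0.16) of chromosome 8 and 30 to 40 Mb of chromosome 20 (-0.13). On chromosome 20, the 134 genes between 40 and 65 Mb had a median of -0.14 (-0.11 without HORMAD1 replicate 1), and 109 lay below 0. In 27 (20.1%) all double libraries were below all HORMAD1 libraries, against 5.79% of the other placed genes. This stretch was also drawn after the values were seen and was not tested. Its bins were uneven, with medians of -0.17 at 40 to 50 Mb, -0.07 at 50 to 60 Mb and -0.17 from 60 Mb. B4GALT5, one of the called genes, lies in this stretch at 49632945 to 49713878.

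Outside chromosome 1, the uncalled genes highest in the double line included PAPPA, a protease that frees insulin-like growth factors, at 4.59, 2.03 and 3.34 CPM against 5.95, 8.33 and 11.6 CPM (log2 fold change 1.34, edgeR adjusted p = 0.138). Without HORMAD1 replicate 1, PAPPA (1.66, adjusted p = 0.0273) and PGAP4 (1.08, adjusted p = 0.0473) were called. ANGPTL4, an inhibitor of lipoprotein lipase, was at 38.2, 35.6 and 30.01 CPM against 54.0, 59.9 and 57.0 CPM (0.72, adjusted p = 0.138). Neither gene overlapped between groups. PGAP4 (1.01, adjusted p = 0.0841) and PNLIPRP3 (0.97, adjusted p = 0.138) also lay on the higher side, and POMK (-0.50, adjusted p = 0.129) and TSPAN18 (-1.13, adjusted p = 0.138) on the lower. PAPPA, ANGPTL4, PGAP4 and TSPAN18 each overlap another tested gene.

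Whether CT83 had a different effect beside HORMAD1 than without it was tested as a difference between contrasts. These were double minus HORMAD1 and CT83 minus control, which share no libraries. They also differed in CT83 level, with 977 to 1170 counts in the double line and 4670 to 7568 in the CT83 line. An effect of the HORMAD1 background and an effect of the CT83 level therefore cannot be told apart here. EdgeR called 0 of 15616 genes (0%), 703 had an unadjusted p under 0.05 (4.5%), limma-voom called 0 and DESeq2 called 3. The median standard error of this difference was 0.22, against 0.15 for double minus HORMAD1. AIF1L had a log2 fold change of -1.52 beside HORMAD1 and -0.40 without it, a difference of -1.12 (SE 0.28, adjusted p = 0.841). For C15orf48 the values were -1.77 and -0.54, a difference of -1.24 (SE 0.35, adjusted p = 0.841), and for CPVL -1.93 and -0.94, a difference of -0.99 (SE 0.40, adjusted p = 0.841). All 3 genes were below 0 in both contrasts, and the difference between contrasts did not pass the test for any of them, which does not show that the effects were equal. BIRC3 had -0.64 and -0.05, a difference of -0.60 (SE 0.16, adjusted p = 0.841), and the NF-kB list had a median of -0.26 in the first contrast and -0.02 in the second. Across genes other than CT83, Pearson's correlation between the 2 contrasts was -0.13, given as a description, since genes are not independent replicates. The libraries with the steepest length trends enter with opposite sign. HORMAD1 replicate 1 (0.043) is subtracted in the first contrast, and CT83 replicate 3 (0.042) is added in the second. The list of long genes had medians of -0.31 and 0.37 in the 2 contrasts. The part of these libraries in the correlation was not tested.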

How the data were processed

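Polyadenylated RNA of 12 libraries was sequenced; RNA came from an RNeasy kit and libraries from a NEBNext Ultra kit, per the labels' protocols. The tools were Trimmomatic 0.39, Picard, SAMtools and STAR 2.7.5c, per the submitters' processing notes, which name the builds hg38 and hg19 without roles. How genes were counted, and with which annotation and strand setting, is not given in the sources used here. As values, the authors deposited expected counts for 61533 gene entries, which were rounded, changing 6.75% of values. The design had assumed raw counts, and the same test was kept. Symbols and GRCh38 coordinates came from the reference tables (GENCODE 29 for 58312 entries). The files held 0 ERCC spike-in entries.

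In R 4.3.3, genes passing filterByExpr at a minimum count of 10 (15616) were scaled by TMM and fitted in edgeR 4.0.16 (quasi-likelihood, robust, all 12 libraries, 8 residual degrees of freedom). DESeq2 1.42.0 and limma 3.58.1 (voom) were alternatives. CPM are normalised. Genes named were the transgenes, 10 per direction with a symbol, no overlap and a log2 CPM that averaged 2 or more (called genes first, then the smallest unadjusted p), and the 2 members of each list with the smallest p; 1 gene so chosen is not reported here. The comparison and the 29 lists were chosen with earlier results of these data known.

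On simulated counts for this comparison (15440 genes), 50.7%, 83.6% and 98.5% of genes changed 1.5-, 2- and 4-fold were called, with 12 unchanged genes, and 0 were called when none changed. The changed genes were drawn only from those with a mean log2 CPM above 2. The simulated libraries held no outlying library and no trend with transcript length, unlike the real ones, so these shares may not carry over.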

Additional observations from a re-analysis of the deposited data

How the results depend on the processing

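Counts of called genes depended on the processing. From 1 higher and 6 lower, an adjusted p under 0.01 gave 0 and 0, upper-quartile scaling 3 higher, no low-count filter 53 and 46, a length offset 2 higher, limma-voom 3 lower, and DESeq2 28 and 29. Fitting only the 6 libraries compared left 0 lower. Leaving out together the 3 libraries whose levels rise most steeply with transcript length (HORMAD1 replicate 1, CT83 replicate 3 and control replicate 2) gave 162 and 177, and 69 of the 162 lay in the chromosome 1 segment. Leaving out 1 library at a time gave 0 to 11 higher and 0 to 28 lower, the highest counts without HORMAD1 replicate 1, and 2 higher without each control library in turn and 4 without CT83 replicate 3; the cause was not tested. The log2 fold change of CT83, 13.21, ran from 13.11 to 13.32 in those fits, but with 0 counts in the HORMAD1 line it depends on the prior count of the fit and is no measure of size or stability. In the difference of the contrasts, 0 and 0 became 2 higher and 1 lower with DESeq2 and 15 and 7 without the 3 steepest libraries, and stayed 0 with any 1 library left out. With the replicate number as a block, 1 gene was called higher and 0 lower. Same-numbered libraries of the double and HORMAD1 lines did not deviate together (correlations of -0.30, -0.08 and -0.20). Pairing by number was thus not seen, but 3 libraries per line are too few to exclude it. No result reversed past the threshold in any setting run. Of the alternative list and segment medians, 694 moved by less than 1 SD between replicates and 19 by more. The median standard error was 0.15; whether depth or the spread between replicates sets it was not tested.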
